A study of Mus musculus with 8 samples.

Results

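The guanylate-binding protein (Gbp) genes of the mouse were read across thymocytes of the B6 and BALB strains. The 10 genes were taken by family name, with earlier results of these data already known. The list was Gbp1, Gbp2, Gbp3 and Gbp7, which lie together on chromosome 3, and Gbp4, Gbp6, Gbp8, Gbp9, Gbp10 and Gbp11, which lie together on chromosome 5. They are 10 of the 23420 gene symbols counted, and all 10 passed the filter on low counts. RNA was sequenced from thymocytes, the T cell precursors that mature in the thymus, of wild-type mice in 4 groups of 2 libraries: B6 DP, B6 whole, BALB DP and BALB whole. DP thymocytes, the stage carrying both CD4 and CD8, were sorted as CD4+ CD8+ cells lacking CD69 and staining low to medium with H57, which binds the beta chain of the T cell receptor. Whole thymocytes were not split by stage, so they also hold earlier and mature thymocytes and other cells of the organ. No mouse was treated, and the labels give no substrain, age, sex or number of animals. Whether a group's libraries are of different mice is not stated, so the p-values measure only the spread between these libraries, which may be technical. Only for BALB whole do counts of sex-linked genes, given below, show libraries of different RNA.

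Guanylate-binding proteins are large GTPases of the dynamin superfamily. Interferon gamma, and more weakly the type I interferons, switch their genes on, in part through IRF1, a transcription factor that binds interferon response elements. In infected macrophages the proteins assemble on vacuoles that hold parasites or bacteria and on free bacteria, damage those membranes, and help inflammasomes to sense the contents. Some members carry a lipid tail added by prenyltransferases, and the ATG8 conjugation machinery of autophagy helps to bring them to the vacuole. In the thymus, interferons made by cells of the medulla act on thymocytes during late maturation.

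Promoter sequences are shown for the 4 genes of chromosome 3, the members whose promoters were searched for the letters of an interferon response element. Those of Gbp4, Gbp6, Gbp8, Gbp9, Gbp10 and Gbp11 were not searched. Positions count from a RefSeq transcript start, position 0, which is the first base of the gene's span for Gbp7 and Gbp2 and lies inside it for Gbp3 (142560044) and Gbp1 (142594847). The stretches run from -160 to the base before the gene's span, which is -1 for Gbp7 and Gbp2, -29 for Gbp3 and -32 for Gbp1, from RefSeq (GRCm38.p6, the mm10 build, C57BL/6J), on the + strand and 5′ to 3′. Capitals mark matches to GAAANNGAAA, the core of the interferon-stimulated response element, searched on both strands and found here on the - strand.
Gbp7 (chr3:142530176-142530335): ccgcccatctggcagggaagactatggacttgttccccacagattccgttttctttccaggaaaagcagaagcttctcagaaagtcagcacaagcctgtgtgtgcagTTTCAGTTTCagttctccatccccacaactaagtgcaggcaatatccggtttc
Gbp3 (chr3:142559884-142560015): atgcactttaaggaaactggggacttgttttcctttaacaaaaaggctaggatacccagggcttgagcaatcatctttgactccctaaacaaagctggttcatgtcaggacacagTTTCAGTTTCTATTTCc
Gbp1 (chr3:142594687-142594815): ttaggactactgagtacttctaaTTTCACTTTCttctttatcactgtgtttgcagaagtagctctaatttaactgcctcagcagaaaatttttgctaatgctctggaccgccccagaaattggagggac
Gbp2 (chr3:142620503-142620662): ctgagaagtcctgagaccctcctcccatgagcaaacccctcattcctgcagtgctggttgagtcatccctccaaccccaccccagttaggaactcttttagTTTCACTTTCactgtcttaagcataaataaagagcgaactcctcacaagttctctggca

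The match lies at -53 to -44 in Gbp7 and at -59 to -50 in Gbp2. The GENCODE annotation starts Gbp2 earlier, at 142620602, so by it the Gbp2 match lies inside the gene. Gbp3 has 2 overlapping matches, which span -45 to -30, and the match of Gbp1 lies farther out, at -137 to -128. Among the 32851 promoter windows of RefSeq, each of 250 bases before and 50 after a start, 1131 (3.44%) hold this motif. A second Gbp3 start in the table has 0 matches in its window. The windows were also searched for TTCNNNGAA, the core of the gamma interferon activation site (GAS), which is not marked above. Gbp7 had 2 matches to it, and Gbp3, Gbp1 and Gbp2 had 0. Of all windows, 2726 (8.3%) hold that second motif. A match is a string of letters and not a measured binding site, and these are the letters of C57BL/6J, not of BALB.

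On chromosome 3 (GRCm38.p6) the genes run in the order Gbp7 (142530336 to 142550151), Gbp3 (142560016 to 142573213), Gbp1 (142594816 to 142619179) and Gbp2 (142620663 to 142638008), all on the + strand. RefSeq now names the files' Gbp1 as Gbp2b, which was matched by synonym. On chromosome 5 the order is Gbp8 (105012513 to 105053609), Gbp9 (105076464 to 105110357), Gbp4 (105115767 to 105139586), Gbp10 (105215699 to 105239533), Gbp6 (105270702 to 105295871) and Gbp11 (105323026 to 105346476), all on the - strand. Gbp11 is annotated as a transcribed pseudogene in RefSeq. Gene counts are taken over exons, so the likeness of the copies limits single values. Of the 50-base stretches of its transcripts, Gbp6 shares 70.3% with another member and Gbp10 shares 73.9%, most of it with each other. The shares are 21.2% for Gbp8, 19.2% for Gbp11, 12.8% for Gbp4 and 9.56% for Gbp9, and from 1.84% to 4.79% for the 4 genes of chromosome 3. Counting any other gene, Gbp6 shares 90.2%, Gbp10 82.5% and Gbp7 12.8%, while for the other members the share is as within the family. GENCODE also draws some transcripts of Gbp8 and Gbp9 across to the start of Gbp4, so reads can be divided among these 3 genes according to the annotation used, and they are given below also as a sum.

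Each library held 2632083 to 5974684 counts in genes, and 11409 genes were tested. In each strain the defining DP genes were higher after the sort: the 9 DP markers, among them Cd4, Cd8a and Rag1, summed to 20100 to 21100 CPM (counts scaled to equal library size, per 1000000) in B6 DP and to 12400 to 13000 in B6 whole, and to 12900 to 13000 in BALB DP and 8960 to 9560 in BALB whole. This sum was also lower in BALB than in B6, with 5 of 9 markers lower in DP and 5 of 9 in whole thymocytes. Rag1 was its largest part, with means of 10200 CPM in B6 DP, 5520 in B6 whole, 4830 in BALB DP and 3360 in BALB whole. Some libraries stood apart. In BALB DP replicate 1, Rn45s, a ribosomal RNA precursor, took 3.14% of counts against 5.11% to 8.35% in the other libraries. The BALB DP libraries were also the deepest (replicate 1, 5974684 counts in genes) and the shallowest (replicate 2, 2632083). Their chi-square per degree of freedom, a measure of spread beyond counting error that grows with depth, was 18.2. In the other groups it was 1.62 to 4.35. BALB whole replicate 1 had 12313 counts of Xist, a transcript of female cells, and 0 of Ddx3y, a gene of the Y chromosome. Replicate 2 of that group had 203 and 725, and the libraries of the other groups had 6 to 24 and 444 to 1177. By these genes BALB whole replicate 1 was female, while every other library held RNA of male cells. The part of sex in the differences was not tested. Calls that change without 1 of the 2 libraries that stood apart are given beside the result, and those that change without both at the end of the comparison.

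Summed over the 10 genes, Gbp transcripts made up 840 CPM ± 32.9 (SD, n = 2 here and below) in B6 DP, 757 ± 41.8 in B6 whole, 543 ± 11.2 in BALB DP and 602 ± 9.33 in BALB whole thymocytes. The sum hid opposite shifts of the chromosomal clusters. The chromosome 5 genes summed to 767 CPM ± 33.2 in B6 DP, 643 ± 37.7 in B6 whole, 417 ± 4.83 in BALB DP and 426 ± 7.03 in BALB whole. The chromosome 3 genes summed to 73.1 CPM ± 0.372, 114 ± 4.04, 126 ± 6.34 and 176 ± 16.4 in the same order. Their share of all Gbp counts was thus 8.44% to 8.98% in B6 DP, 14.8% to 15.3% in B6 whole, 22.8% to 23.7% in BALB DP and 27.6% to 30.8% in BALB whole, with no overlap between any of the groups. Gbp4 and Gbp8 together held 78.4% to 79.5% of the Gbp counts in B6 DP but 52.9% to 53.4% in BALB whole.

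**Figure D1:**
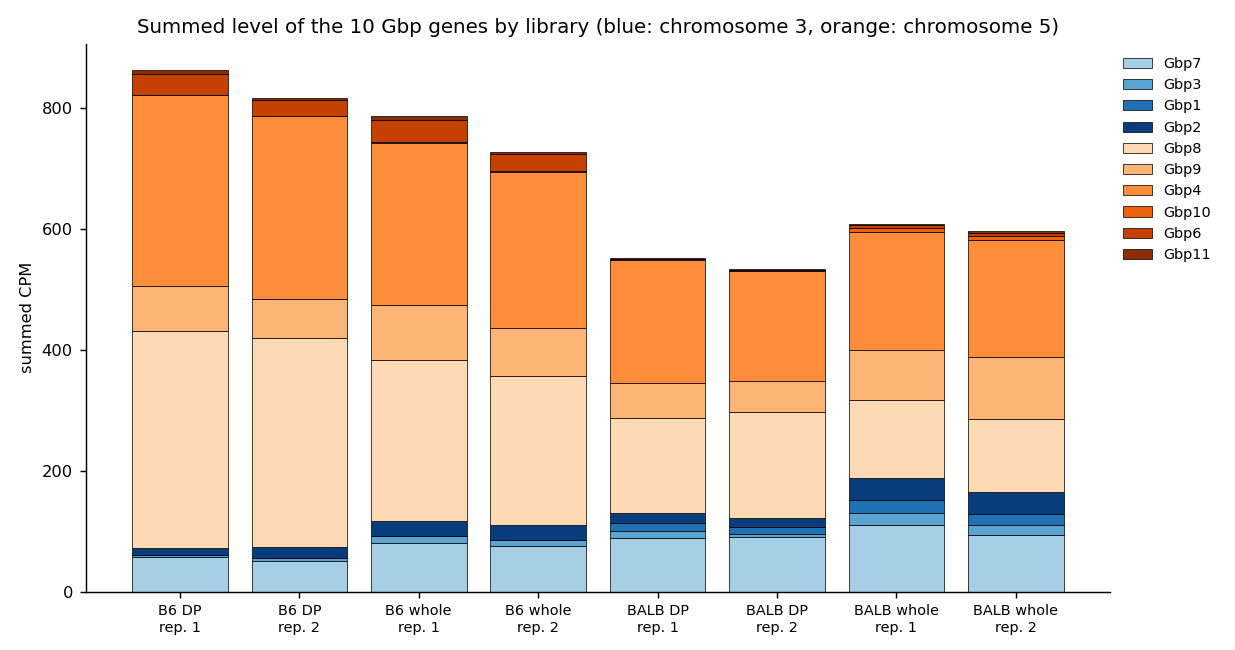
Stacked CPM of the 10 Gbp genes in each of the 8 libraries, with the chromosome 3 genes in blue and the chromosome 5 genes in orange. The total is highest in B6 DP (mean 840 CPM) and lowest in BALB DP (543), while the blue part is smallest in B6 DP (73.1) and largest in BALB whole (176).

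Per kilobase of transcript, Gbp8 stood first in every group, at 144 CPM per kb in B6 DP, 104 in B6 whole, 67.5 in BALB DP and 50.8 in BALB whole. Gbp4 stood second in every group, at 68.1, 58.0, 42.5 and 42.8 CPM per kb. Gbp9 (12.4 to 21.2 CPM per kb over the group means) and Gbp7 (9.67 to 18.2) came next in all groups but B6 DP, where Gbp6 at 11.4 stood above Gbp7 at 9.67. Gbp2 lay between 5.92 and 14.2 CPM per kb, and Gbp3 between 1.45 and 6.75. Gbp1 was at 0 CPM per kb in B6 DP and 6.94 in BALB whole, Gbp6 at 12.5 in B6 whole and 0.541 in BALB DP. Gbp10 (0.0649 to 1.77 CPM per kb) and Gbp11 (0.550 to 1.98) were low in every group. These orders rest on 1 RefSeq transcript length per gene.

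**Figure D2:**
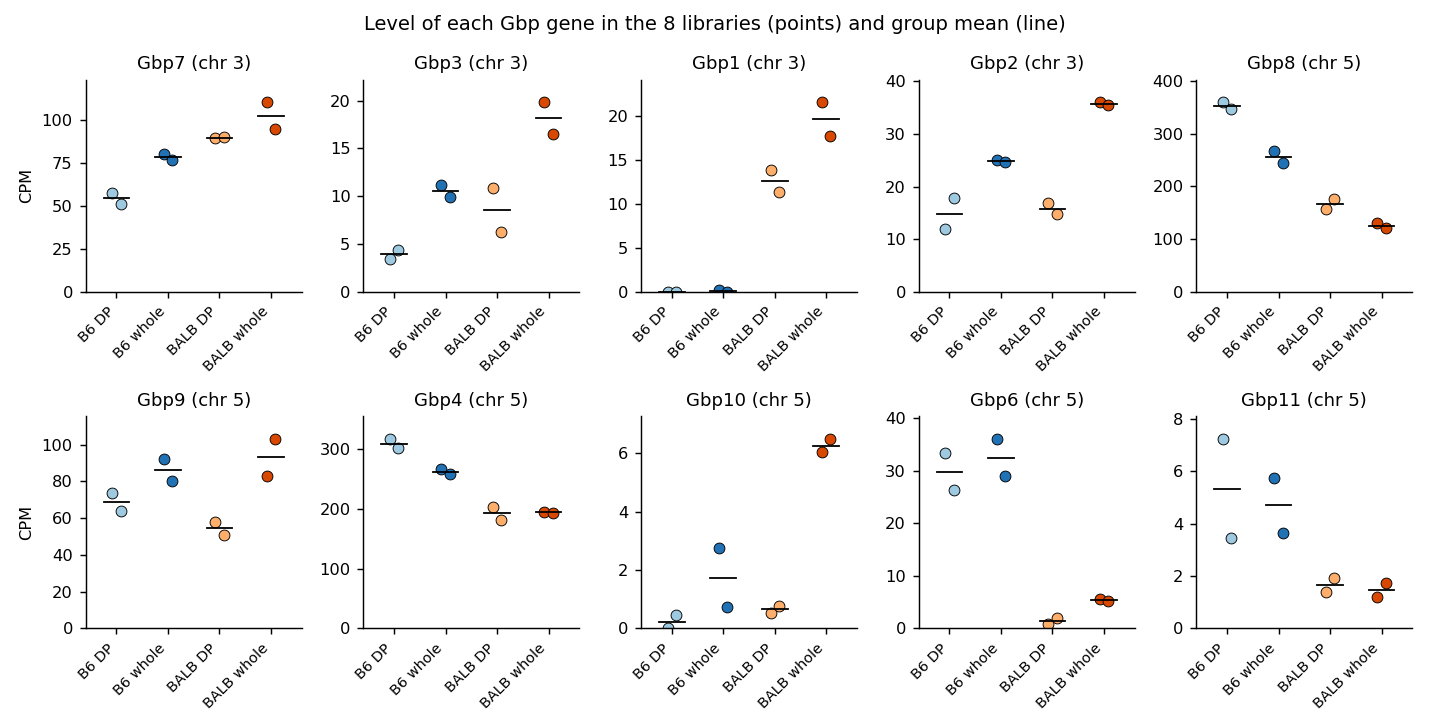
CPM of each Gbp gene in the 8 libraries (points) with the mean of each group (line), each panel on its own axis from 0. Gbp1 is at or near 0 in all 4 B6 libraries and between 11.3 and 21.5 CPM in BALB, while Gbp6 is between 26.3 and 36.0 CPM in B6 and between 0.876 and 5.55 in BALB.

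The first comparison set BALB against B6 in sorted DP thymocytes, where the mixture of stages is narrow. Of the 10 genes, 6 differed between the strains at an adjusted p under 0.05 (edgeR quasi-likelihood test, Benjamini-Hochberg adjustment over all 11409 genes), against 13.0% of all genes. Gbp1, Gbp3 and Gbp7 of chromosome 3 were higher in BALB (6.85% of all genes were higher), and Gbp4, Gbp6 and Gbp8 of chromosome 5 were lower (6.14% of all genes). The libraries of the strains did not overlap for 9 of the 10 genes, against 52.2% of all genes. The median log2 fold change of the 10 genes was -0.12, against 0 over all genes.

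Gbp1, which in mouse macrophages takes part in delivering antimicrobial cargo to bacteria, had no count in either B6 DP library and 79 and 29 counts in BALB DP, which are 13.8 and 11.3 CPM. With B6 set at a floor of 3 counts over the group, it was at least 32.9-fold higher in BALB DP (adjusted p = 5.16e-05, edgeR). Every BALB library held Gbp1 and the B6 DP libraries did not. Gbp7, which in mouse macrophages promotes assembly of the phagocyte oxidase, was at 57.4 and 51.2 CPM in B6 DP and at 89.3 and 89.7 in BALB DP. Its log2 fold change was 0.72 ± 0.13 (SE; adjusted p = 0.00381, edgeR), and the groups did not overlap. Gbp3, one of the members that gather at Toxoplasma vacuoles in mouse cells, was at 3.45 and 4.34 CPM in B6 DP and at 10.9 and 6.21 in BALB DP. It differed by 1.20 ± 0.34 on the log2 scale (adjusted p = 0.0374, edgeR), with BALB DP replicate 1 well above replicate 2. Gbp2, needed for control of Toxoplasma in mice, was at 11.9 and 17.8 CPM in B6 DP and at 16.8 and 14.8 in BALB DP. Its groups overlapped, and its log2 fold change of 0.08 ± 0.22 did not pass (adjusted p = 0.849, edgeR).

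On chromosome 5, Gbp6, whose knockdown raised bacterial growth in mouse macrophages, was at 33.3 and 26.3 CPM in B6 DP and at 0.876 and 1.94 in BALB DP, or 106 and 115 counts against 5 and 5. Its log2 fold change was -4.56 ± 0.34 (adjusted p = 6.25e-06, edgeR). Its near copy Gbp10 had 0 and 2 counts in B6 DP and 3 and 2 in BALB DP, a ratio of 2.28 with a 95% counting interval of 0.374 to 24.0 (adjusted p = 0.588, edgeR). Summed, Gbp6 and Gbp10 were at 30.0 CPM ± 4.62 in B6 DP and 2.06 ± 0.931 in BALB DP, a log2 fold change of -4.00 ± 0.32 (adjusted p = 1.04e-05, edgeR).

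Gbp8 was at 359 and 347 CPM in B6 DP and at 157 and 175 in BALB DP, a log2 fold change of -1.09 ± 0.10 (adjusted p = 4.03e-05, edgeR). Gbp4, which in human and mouse cells restrains IRF7 and so type I interferon production, was at 317 and 302 CPM in B6 DP and at 203 and 182 in BALB DP. Its log2 fold change was -0.68 ± 0.099 (adjusted p = 0.00107, edgeR), and neither gene's groups overlapped. Gbp9, another member that gathers at Toxoplasma vacuoles in mouse cells, was at 73.5 and 64.0 CPM in B6 DP and at 58.0 and 50.9 in BALB DP, and its log2 fold change of -0.32 ± 0.15 did not pass (adjusted p = 0.187, edgeR). Gbp4, Gbp8 and Gbp9 summed differed by -0.82 ± 0.09 (adjusted p = 0.00012, edgeR). The pseudogene Gbp11 was at 7.22 and 3.43 CPM in B6 DP and at 1.40 and 1.94 in BALB DP, with a log2 fold change of -1.68 ± 0.52 that did not pass (adjusted p = 0.0562, edgeR), although it passed with no filter on low counts (0.0102) and without BALB DP replicate 2 (0.0414).

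The sums of the clusters moved in opposite directions between the strains: in DP thymocytes the chromosome 3 sum was higher in BALB by 0.79 ± 0.12 on the log2 scale (adjusted p = 0.00109, edgeR) and the chromosome 5 sum was lower, at -0.88 ± 0.092 (adjusted p = 8.03e-05). These sums follow their most abundant genes. In B6 DP, Gbp4 and Gbp8 made up 663 of the 767 CPM of chromosome 5, and Gbp7 made up 54.3 of the 73.1 CPM of chromosome 3. Singly, Gbp2, Gbp9, Gbp10 and Gbp11 did not pass. The calls of Gbp1, Gbp4, Gbp6 and Gbp8 held under every alternative tried. That of Gbp7 was lost without B6 DP replicate 2 (adjusted p = 0.0712). That of Gbp3 was lost without each library in turn except BALB DP replicate 2 (adjusted p from 0.0539 to 0.463), and without BALB DP replicate 1 its log2 fold change was 0.64. Without both libraries that stood apart it was also lost (0.63, adjusted p = 0.447).

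In whole thymocytes, 4 of the 10 genes differed between the strains, against 4.59% of all genes: Gbp1 was higher in BALB (1.98% of all genes were), and Gbp4, Gbp6 and Gbp8 were lower (2.61% of all genes). These 4 genes were called in the same direction in DP thymocytes. The libraries of the strains did not overlap for 9 of the 10 genes, against 48.6% of all genes. The median log2 fold change of the 10 genes was 0.25, against 0.02 over all genes. A further 5 genes had an unadjusted p under 0.05, since 9 of the 10 did. The share of all genes under that threshold was not counted, so this number has no baseline.

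Gbp1 had 1 and 0 counts in B6 whole and 89 and 71 in BALB whole, which are 21.5 and 17.7 CPM. The ratio was 160 with a 95% counting interval of 28.3 to 6350 (adjusted p = 3.44e-05, edgeR). Gbp6 was at 36.0 and 29.0 CPM in B6 whole and at 5.55 and 5.24 in BALB whole, a log2 fold change of -2.58 ± 0.25 (adjusted p = 7.53e-05, edgeR). As in the DP cells, both BALB libraries lay far below both B6 libraries for Gbp6 and far above them for Gbp1. Gbp8 was at 266 and 245 CPM in B6 whole and at 130 and 121 in BALB whole, a log2 fold change of -1.03 ± 0.11 (adjusted p = 0.000114, edgeR). Gbp4 was at 267 and 258 CPM in B6 whole and at 195 and 194 in BALB whole, and differed by -0.43 ± 0.099 (adjusted p = 0.0269, edgeR).

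The others did not pass in whole thymocytes. Gbp7 was at 80.2 and 76.4 CPM in B6 whole and at 110 and 94.6 in BALB whole, with a log2 fold change of 0.39 ± 0.12 (adjusted p = 0.125, edgeR). Gbp3 was at 11.2 and 9.92 CPM in B6 whole and 19.8 and 16.5 in BALB whole, with 0.78 ± 0.26 (adjusted p = 0.143). Gbp2 was at 25 and 24.7 CPM in B6 whole and 36.0 and 35.5 in BALB whole, with 0.52 ± 0.19 (adjusted p = 0.182). For each of these 3 genes both BALB libraries lay above both B6 libraries. Gbp10 had 11 and 3 counts in B6 whole and 25 and 26 in BALB whole, with 1.84 ± 0.53 (adjusted p = 0.0803). Gbp11 had -1.65 ± 0.53 (adjusted p = 0.126) and Gbp9 0.11 ± 0.14 (adjusted p = 0.848). When the whole thymocyte libraries were fitted alone, Gbp2, Gbp3, Gbp7, Gbp10 and Gbp11 passed, with adjusted p from 0.0169 to 0.0421 (edgeR). That fit also called more of all genes, 1050 against 524 in the main fit. Gbp3 and Gbp7 also passed without either BALB DP library (adjusted p from 0.0458 to 0.0492).

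**Figure D3:**
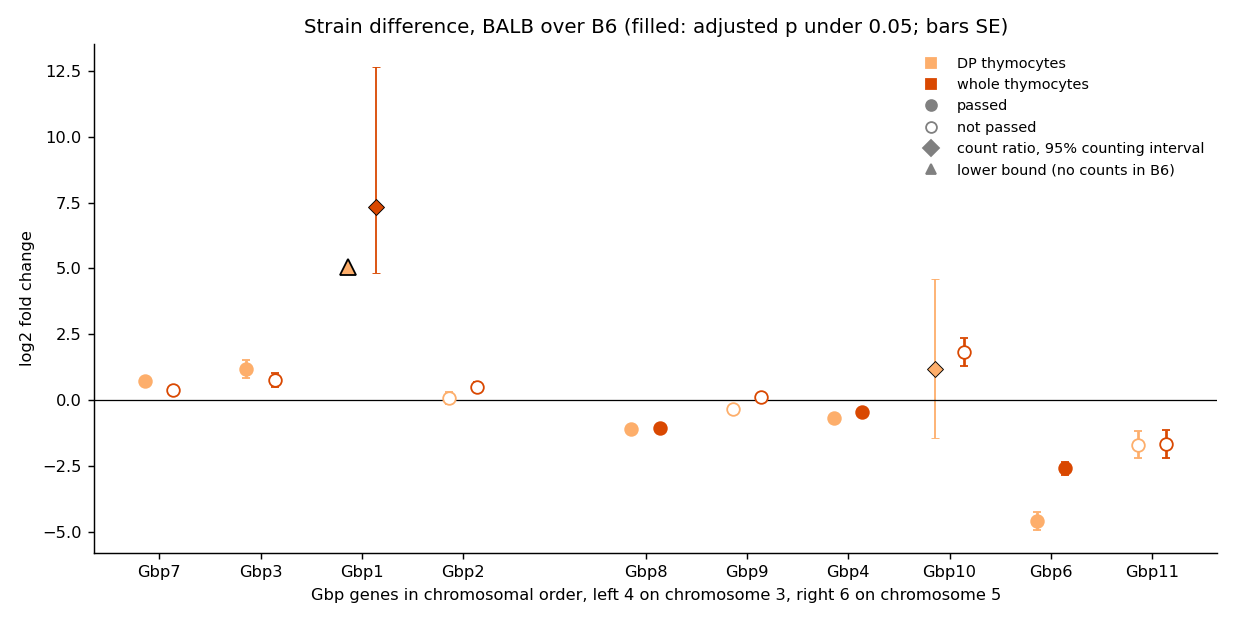
Log2 fold change of BALB over B6 for each Gbp gene in chromosomal order, in DP (light) and whole (dark) thymocytes; circles with SE bars are edgeR values, filled where the adjusted p was under 0.05, diamonds are count ratios with a 95% counting interval and the triangle is a lower bound. Gbp1 is far above 0 and Gbp6 far below it, at -4.56 in DP and -2.58 in whole thymocytes.

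Summed, the chromosome 3 genes were higher in BALB whole by 0.63 ± 0.11 on the log2 scale (adjusted p = 0.00575, edgeR) and the chromosome 5 genes lower, at -0.59 ± 0.091 (adjusted p = 0.00221). Gbp6 with Gbp10 differed by -1.55 ± 0.22 (adjusted p = 0.0014), a smaller size than Gbp6 alone. The call of Gbp4 was lost without each of the whole thymocyte libraries, and without each B6 DP library (adjusted p from 0.0627 to 0.279). Markers of other cells and stages moved with the strain in whole thymocytes, in both directions. Of 7 innate-like and NK cell markers 6 were tested and 3 were higher in BALB, with a sum of 62.6 to 70.5 CPM in B6 whole and 129 to 142 in BALB whole. In that list the means of Gzma and Klrb1c were lower in BALB whole, but 0 markers passed as lower. Of 8 thymic epithelial markers tested 2 were higher, with sums of 38.5 to 49.6 and 97.8 to 110 CPM. No marker of either list was at 0 in whole thymocytes. Of 4 markers of earlier thymocytes (DN) tested 2 were lower in BALB. The DN list summed to 88.5 to 118 CPM in B6 whole and 58.4 to 58.7 in BALB whole. Of 5 B cell markers tested 1 was lower. Among mature thymocyte markers 1 of 9 was higher, and among myeloid and dendritic cell markers 1 of 13. The part of all these cells in the Gbp differences was not tested. The reads of both strains were aligned to mm10, a C57BL/6J genome, and the shares not aligned overlapped between the strains (14.6% to 20.7% in B6, 12.8% to 21.2% in BALB). The part of sequence differences between the strains in these values was not tested.

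The second comparison set whole against DP thymocytes within each strain. In B6, 4 of the 10 genes differed, against 10.2% of all genes: Gbp2, Gbp3 and Gbp7 were higher in whole thymocytes (6.89% of all genes were) and Gbp8 was lower (3.27%). In BALB, 6 differed, against 17.2% of all genes: Gbp2, Gbp3, Gbp6, Gbp9 and Gbp10 were higher in whole thymocytes (10.6% of all genes) and Gbp8 was lower (6.59%). The median log2 fold change of the 10 genes was 0.43 in B6, or 0.33 without Gbp1, and 0.69 in BALB, against 0 over all genes in both. The populations did not overlap for 7 of the 10 genes in B6, against 61.4% of all genes, and for 8 in BALB, against 52.7%. These are bulk libraries, in which fewer cells of a type and less RNA per cell cannot be told apart.

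On chromosome 3, Gbp3 had log2 fold changes, whole over DP, of 1.41 ± 0.33 in B6 (adjusted p = 0.0186, edgeR) and 0.99 ± 0.26 in BALB (adjusted p = 0.0237). Gbp2 was higher in whole thymocytes by 0.71 ± 0.21 in B6 (adjusted p = 0.0486) and by 1.16 ± 0.20 in BALB (adjusted p = 0.00209). Its libraries do not overlap in either strain: in BALB they were at 16.8 and 14.8 CPM in DP and at 36.0 and 35.5 in whole thymocytes. Gbp7 was higher by 0.53 ± 0.13 in B6 (adjusted p = 0.0222) and had 0.19 ± 0.12 in BALB, which did not pass (adjusted p = 0.312). Gbp1 had 0.61 ± 0.26 in BALB (adjusted p = 0.129), and in B6 no fold is given for 0 against 1 count. The chromosome 3 sum was higher in whole thymocytes by 0.64 ± 0.12 in B6 (adjusted p = 0.0048) and by 0.47 ± 0.11 in BALB (adjusted p = 0.0123). Gbp5, a chromosome 3 gene that was not among the 10, was higher by 1.54 ± 0.39 in B6 (adjusted p = 0.0278) and by 2.04 ± 0.37 in BALB (adjusted p = 0.00302). Between the strains it had 0.01 ± 0.44 in DP, with overlapping libraries, and 0.50 ± 0.31 in whole thymocytes (adjusted p = 0.555, edgeR). Gbp5 passed in neither and is not part of the chromosome 3 sums.

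On chromosome 5, Gbp8 went the other way and was lower in whole thymocytes, at -0.47 ± 0.10 in B6 (adjusted p = 0.0137, edgeR) and -0.40 ± 0.11 in BALB (adjusted p = 0.0235). Its neighbour Gbp9 had 0.33 ± 0.15 in B6, which did not pass (adjusted p = 0.195), and was higher by 0.76 ± 0.15 in BALB (adjusted p = 0.00458). Gbp4 had -0.24 ± 0.098 in B6 (adjusted p = 0.161, but 0.0388 or 0.0389 without BALB DP replicate 1 or 2) and 0.01 ± 0.10 in BALB (adjusted p = 0.959). Summed, Gbp4, Gbp8 and Gbp9 had -0.28 ± 0.089 in B6 (adjusted p = 0.0773) and 0.00 ± 0.09 in BALB (adjusted p = 0.988) and did not pass in either strain.

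Gbp6 was higher in BALB whole than in BALB DP by 2.12 ± 0.44 (adjusted p = 0.00654, edgeR), from 5 and 5 counts to 23 and 21. In B6, where it was abundant, its log2 fold change was 0.14 ± 0.20 (adjusted p = 0.75), and its libraries overlapped. Gbp10 was higher in BALB whole by 3.30 ± 0.65 (adjusted p = 0.00464), from 3 and 2 counts to 25 and 26. In B6 it had 2 counts over the DP libraries and 14 over the whole libraries, a ratio of 6.51 with a 95% counting interval of 1.49 to 59.0 (adjusted p = 0.132). Gbp6 and Gbp10 summed were higher in BALB whole by 2.65 ± 0.36 (adjusted p = 0.000437), and had 0.20 ± 0.20 in B6 (adjusted p = 0.61). Gbp11 had -0.13 ± 0.43 in B6 (adjusted p = 0.896) and -0.10 ± 0.65 in BALB (adjusted p = 0.935).

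**Figure D4:**
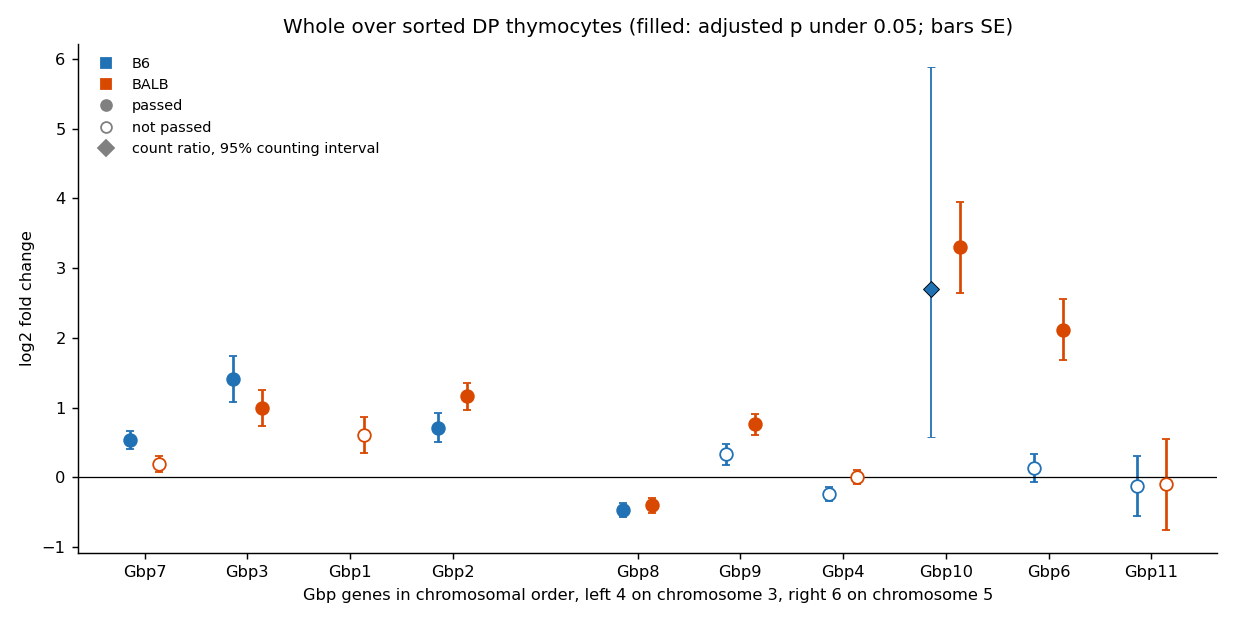
Log2 fold change of whole over DP thymocytes for each Gbp gene in chromosomal order, in B6 (blue) and BALB (orange); circles with SE bars are edgeR values, filled where the adjusted p was under 0.05, and the diamond is a count ratio with a 95% counting interval. Gbp2 and Gbp3 are above 0 and Gbp8 below it in both strains, while Gbp6 is at 0.14 in B6 and 2.12 in BALB.

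All 4 calls in B6 were lost when a library was left out. Leaving out any 1 of the 4 B6 libraries ended those of Gbp3 (adjusted p from 0.0679 to 0.125), Gbp7 (0.0874 to 0.204) and Gbp8 (0.0847 to 0.176), and that of Gbp2 ended without B6 DP replicate 1, either B6 whole or either BALB whole library (0.0764 to 0.327). In BALB, the call of Gbp2 held throughout. Those of Gbp6 (log2 fold change 1.46, adjusted p = 0.115) and Gbp10 (2.95, adjusted p = 0.0538) ended without BALB DP replicate 1. Both also ended without the 2 libraries that stood apart (adjusted p = 0.163 and 0.0604), a fit in which Gbp4 (-0.22, adjusted p = 0.00809) and Gbp9 (0.35, adjusted p = 0.0191) passed in B6. That of Gbp9 ended without BALB whole replicate 2 (0.60, adjusted p = 0.058), and those of Gbp3 (adjusted p = 0.143 and 0.0563) and Gbp8 (0.0598 and 0.130) ended without BALB whole replicate 1 or 2.

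Markers of other cells were also higher in whole thymocytes. Of the 15 markers of myeloid and dendritic cells 13 were tested and 10 of them were higher in whole thymocytes in each strain. They summed to 28.3 to 45 CPM in B6 DP, 151 to 154 in B6 whole, 39.2 to 48.4 in BALB DP and 180 to 198 in BALB whole, with Itgax, Sfpi1 and Batf3 at 0 in B6 DP and Clec9a, Sfpi1, Batf3 and Emr1 at 0 in BALB DP. The 9 mature thymocyte markers, of which 8 were higher in B6 and 9 in BALB, went from 97.1 to 102 CPM in B6 DP to 409 to 465 in B6 whole, and from 109 in BALB DP to 569 to 607 in BALB whole. Of the 10 thymic epithelial markers 8 were tested, with 5 higher in B6 and 7 in BALB. They summed to 9.42 to 10.5 CPM in B6 DP and 38.5 to 49.6 in B6 whole, and to 9.32 to 10.5 in BALB DP and 97.8 to 110 in BALB whole. Krt8, Krt5, Krt14 and Foxn1 were at 0 in B6 DP, and Krt14, Foxn1, Prss16 and Aire in BALB DP. The part of these cells in the Gbp differences was not tested.

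Whether the strain difference depended on the population was tested by the interaction, the strain difference in whole minus that in DP thymocytes. None of the 10 genes passed (edgeR), against 0.123% of all genes. Only Gbp6 had an unadjusted p under 0.05, and DESeq2 called 0. For Gbp6 the interaction was 1.98 ± 0.49 on the log2 scale (unadjusted p = 0.00169, adjusted p = 0.191, edgeR). It passed with no filter on low counts (adjusted p = 0.00836, edgeR), a fit that called 364 of all genes against 14 in the main fit. Without BALB DP replicate 2 the Gbp6 interaction was 2.41. Without BALB DP replicate 1 it was smaller, at 1.30, and without both libraries that stood apart it was 1.26. The sum of Gbp6 and Gbp10, which does not depend on how counted reads were divided between these copies, had 2.45 ± 0.42 (adjusted p = 0.0589, edgeR). Summing does not bring back reads that HTSeq set apart as not uniquely aligned, which were 10.1% to 11.9% of each library's reads. Neither cluster sum passed, with -0.17 ± 0.16 for chromosome 3 (adjusted p = 0.741) and 0.28 ± 0.13 for chromosome 5 (adjusted p = 0.455). The median over the 10 genes was 0.16, or 0.25 without Gbp1, against 0.01 over all genes.

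The genes that induce or accompany the Gbp family were read from lists. Of 19 genes of interferon receptor signalling 17 were tested. In DP thymocytes 1 was higher and 2 lower in BALB: Irf1, an activator of Gbp genes, was higher by 0.68 ± 0.15 on the log2 scale (adjusted p = 0.0104, edgeR), and Ifnar1, a type I interferon receptor chain (-0.74 ± 0.14, adjusted p = 0.00499), and Irf9, the DNA-binding part of the ISGF3 complex (-0.68 ± 0.18, adjusted p = 0.0252), were lower. The list's median was -0.07. None passed between the strains in whole thymocytes (edgeR), where 1 had an unadjusted p under 0.05, DESeq2 called 0 and the median was 0.04.

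From DP to whole thymocytes, 4 genes of this signalling list were higher and 0 lower in B6 (median -0.01), and 5 were higher and 1 lower in BALB (median 0.15). Irf8, a factor of myeloid and B cells that also acts in interferon responses, was higher by 2.36 ± 0.32 in B6 (adjusted p = 0.00079, edgeR) and by 2.52 ± 0.29 in BALB (adjusted p = 0.00017). Irf1 was higher by 0.53 ± 0.15 in B6 (adjusted p = 0.0405), and Irf9 by 1.10 ± 0.17 in BALB (adjusted p = 0.00112). The interferon gamma gene Ifng itself had 0, 1, 0 and 3 counts over the libraries of B6 DP, B6 whole, BALB DP and BALB whole.

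Of 13 other interferon-inducible GTPases 5 were tested, since most had few or no counts. In DP thymocytes 2 were lower in BALB (list median -1.06): Igtp, which encodes Irgm3, a guard of self membranes (-1.06 ± 0.13, adjusted p = 0.000322, edgeR), and its relative Irgm2 (-1.18 ± 0.22, adjusted p = 0.00502). In whole thymocytes 1 was higher in BALB (median -0.07), the antiviral Mx2 (1.67 ± 0.30, adjusted p = 0.0069). From DP to whole thymocytes 2 were higher in B6 (median 1.32) and 5 in BALB (median 2.52), among them in BALB Igtp (0.70 ± 0.13, adjusted p = 0.00377) and Mx2 (2.52 ± 0.34, adjusted p = 0.000442). Thus Igtp and Irgm2 were lower in BALB DP cells, where Gbp4, Gbp6 and Gbp8 were lower and Gbp1, Gbp3 and Gbp7 higher.

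Of 36 other interferon-stimulated genes 32 were tested. Between the strains 1 was lower in BALB DP (list median -0.04) and 1 higher in BALB whole (median 0.11): Nlrc5, the activator of MHC class I genes (-0.85 ± 0.22, adjusted p = 0.0235, edgeR), and Ifi44 (2.05 ± 0.42, adjusted p = 0.0182). From DP to whole thymocytes 17 were higher in B6 (median 1.08) and 20 in BALB (median 1.27), and 0 were lower in either. Nlrc5 was higher by 3.24 ± 0.16 in B6 (adjusted p = 3.01e-07) and by 4.07 ± 0.17 in BALB (adjusted p = 6.31e-08). Against these medians, the 10 Gbp genes had 0.43 in B6, or 0.33 without Gbp1, and 0.69 in BALB.

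Few genes of the machinery that places Gbp proteins on membranes passed. Of 14 genes of prenylation and ATG8 conjugation, all tested, 0 passed between the strains in DP (edgeR; 4 at an unadjusted p under 0.05, DESeq2 0) or in whole thymocytes (1 and 0), with medians of -0.10 and 0.01. None passed from DP to whole thymocytes in B6 (3 and 0, median -0.15), and 2 were lower in BALB (median -0.04): the ATG8 proteins Gabarapl1 (-1.25 ± 0.27, adjusted p = 0.00829) and Map1lc3b (-0.58 ± 0.17, adjusted p = 0.0373). Of 8 inflammasome genes 3 were tested. Pycard, the adaptor ASC, was lower in BALB by -1.14 ± 0.15 in DP (adjusted p = 0.000564, edgeR) and -1.19 ± 0.15 in whole thymocytes (adjusted p = 0.000553), and it alone passed between the strains (medians -0.37 and 0.13). From DP to whole thymocytes 0 passed in B6 (edgeR; 1 at an unadjusted p under 0.05, DESeq2 0; median 0.24), and 2 were higher in BALB (median 0.74), the DNA sensor Aim2 (1.11 ± 0.25, adjusted p = 0.00945) and the pore former Gsdmd (0.74 ± 0.18, adjusted p = 0.0141). No gene of the 5 lists passed the interaction.

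Genes outside the family with the most similar pattern were found from the root mean square difference of centred log2 CPM over the 4 group means, among 11386 genes with a mean of at least 1 CPM. The likeness rests on 4 points and is a description. For Gbp1 the nearest gene, Ddr1, a collagen receptor, lay at a difference of 0.41, with 4.51 CPM in B6 DP, 4.42 in B6 whole, 150 in BALB DP and 107 in BALB whole. For Gbp6 the nearest were 2610507I01Rik (0.12), at 13.6, 14.2, 0.476 and 2.83 CPM in the same order, and H2-Q2 (0.22), a gene of the MHC class I region, at 73.8, 73.0, 6.32 and 16.1 CPM. Both were, like Gbp6, low in BALB and lowest in BALB DP. For Gbp10 they were Krt5 (0.13), a keratin of thymic epithelium at 0, 0.734, 0.175 and 4.06 CPM, and Rbms3 (0.14). The other members had neighbours at 0.01 to 0.11, among them Tagln2 (0.01) for Gbp7, Dclk2 (0.01) for Gbp4, Tmem38a (0.03) for Gbp8, Mettl17 (0.02) for Gbp9, Ufsp1 (0.04) for Gbp2, Clstn1 (0.07) for Gbp3 and Gm20098 (0.04) for Gbp11.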

How the data were processed

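Alignment was to mm10 with HISAT2 2.2.0 and counting with HTSeq, per the submitters' processing notes, which also name DESeq2 1.42.1. Of the annotation, HTSeq's version and the read length, nothing is given in the sources used here. The TruSeq kit named in the labels' protocols keeps no strand. The authors deposited raw counts per gene symbol, 1 file per library; reads in genes were 22.6% to 30.8% of each file, and HTSeq's totals of other reads were left out of library sizes. No other per-sample columns were present.

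The tests used edgeR 4.0.16 (R 4.3.3): filterByExpr over the 4 groups (11409 genes), TMM scaling, 1 coefficient per group over all 8 libraries, the quasi-likelihood test and Benjamini-Hochberg adjustment, with calls at 0.05. Errors of log2 fold changes are SE and those of CPM are SD over 2 libraries. CPM are counts divided by the TMM-scaled library size, per 1000000. Folds against a group of 0 counts use a floor of 3 counts over the group, and counting intervals (95%, exact binomial) cover counting error only. The edgeR fit was tested on simulated counts for each comparison but the interaction, and the other steps had no such test. Those counts were drawn with a common spread for all genes and groups, so a spread that differs between groups was not simulated.

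The members and lists were chosen with earlier results of these data known. The genes named are the 10 members, up to 4 tested genes of smallest p per list and comparison, and the 2 nearest patterns per member; other than members, genes with 3 or fewer counts in a group compared are given no fold, and such members have a bound or a count ratio. Ifng and Gbp5 were added for context after their values were seen. Alternatives were DESeq2 1.42.0 size factors and Wald test, no filter, a replicate block, only the 4 libraries compared, cluster sums, leaving out libraries, and, chosen after seeing the data, Gbp6 with Gbp10 and Gbp4, Gbp8 and Gbp9 summed. Figures used Python 3.11.15 and matplotlib 3.10.9.
Some items are not reported here.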

Additional observations from a re-analysis of the deposited data

How the results depend on the processing

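With 2 libraries a group and 2632083 to 5974684 counts in genes per library, calls near the threshold depend on single libraries, and members with few counts (Gbp1 in B6, Gbp10, Gbp6 in BALB, Gbp11) are known only roughly. Of the 10 members, 6 were called between strains in DP, 4 in whole thymocytes, 4 between populations in B6, 6 in BALB and 0 for the interaction. Leaving out each library in turn gave 4 to 7, 3 to 6, 0 to 5, 3 to 6 and 0 to 1, the 1 being Gbp6 (2.41, adjusted p = 0.0116, edgeR) without BALB DP replicate 2. DESeq2 called 5, 3, 2, 4 and 0, losing Gbp3 in DP (adjusted p = 0.107), Gbp4 in whole (0.0504), Gbp2 (0.143) and Gbp7 (0.0549) in B6, and Gbp3 (0.0812) and Gbp8 (0.0565) in BALB. With only the 4 libraries compared, 9 were called between strains in whole thymocytes, and without a filter 1 for the interaction (Gbp6, adjusted p = 0.00836). As cluster sums, 2, 2, 1 and 1 of 2 features were called in the first 4 comparisons: by this construction only 2 features can be. Without both libraries that stood apart, 5, 4, 6, 4 and 0 were called, Gbp3 being lost in DP (adjusted p = 0.447) and Gbp6 (0.163) and Gbp10 (0.0604) in BALB, and Gbp4 (0.00809) and Gbp9 (0.0191) being gained in B6. Other causes were not tested.

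Replicate numbers did not pair libraries: deviations of same-numbered libraries correlated at -0.04 to 0.06. A replicate block gave 6, 4, 3, 6 and 0 calls, losing Gbp2 in B6 (adjusted p = 0.0633).

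No called value of a single gene changed sign in the alternatives tried. Values that changed sign, none of them called, were, without both libraries that stood apart, Gbp2 in DP (-0.06) and for the interaction Gbp8 (-0.08) and Gbp11 (-0.04). With 1 library left out, values on both sides of 0 were those of Gbp2 in DP (-0.16 to 0.43), Gbp9 in whole (-0.05 to 0.25), Gbp6 (-0.03 to 0.30) and Gbp11 (-0.61 to 0.44) in B6, and Gbp4 (-0.09 to 0.09) and Gbp11 (-0.39 to 0.14) in BALB. For the interaction they were Gbp3 (-0.71 to 0.12), Gbp8 (-0.04 to 0.12), Gbp10 (-2.52 to 1.93, from few counts) and Gbp11 (-0.55 to 0.49).

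Over all genes, calls between strains in DP went from 1482 to 562 with only the 4 libraries compared and from 509 to 3493 leaving out 1 library. In whole thymocytes they went from 524 to 839 with no filter, 1050 with 4 libraries and 1046 without both libraries that stood apart (214 to 966 leaving out 1). Between populations they went from 1159 in B6 to 748 (DESeq2), 2568 and 2809 (378 to 2201), and from 1961 in BALB to 1101 with 4 libraries (1040 to 3976). For the interaction they went from 14 to 364 with no filter, 24 with DESeq2 and 139 without both (0 to 1311).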
